A study of Mus musculus with 4 samples.

Results

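The 42 genes described here encode the machinery of mitosis: the kinases and cyclins that start it, the kinetochore and checkpoint proteins, the ubiquitin and securin proteins of anaphase, and the motors and scaffolds of the spindle and cleavage furrow. They were taken by name from a fixed list, which was chosen with earlier results of these data known. All 42 had a row among the 32285 genes of the count matrices. Every one passed the filter on low counts in each of the 4 main groups of cells.

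Cells of the embryonic mouse cerebellum (stage E14.5) were studied by droplet sequencing of RNA from the 3′ end. Control embryos were Atoh1-Cre/+ with one R26LSL-tdT allele, and the conditional knockout (En1/2 CKO) embryos carried in addition En1lox/lox and En2lox/lox, so that Cre and the tdTomato reporter were present in both groups. Cre was driven from Atoh1, a gene of rhombic lip progenitors, and only tdTomato-positive cells were sorted, so the libraries hold that lineage and its descendants. Embryos were pooled before dissociation with Accutase, and each genotype had 2 libraries. No source used here says whether the libraries of a genotype came from separate litters, so p-values measure the spread between these 2 and 2 libraries, which may be technical.

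During mitosis, Cdk1 bound to cyclin B phosphorylates many proteins, chromosomes condense, and microtubules attach to the kinetochores. The spindle checkpoint holds the anaphase-promoting complex until all chromosomes are attached; this ubiquitin ligase then marks securin and cyclin B for destruction. Most genes of the group are transcribed mainly in G2 and M phase, through the B-Myb and MuvB complex and FoxM1, which act at CHR elements, together with NF-Y at CCAAT boxes. In the embryonic cerebellum, granule cell precursors of the external granule layer carry Atoh1 and divide, while cells that turn on Neurod1 are leaving the cycle. Excitatory neurons of the cerebellar nuclei leave the rhombic lip earlier and are largely postmitotic at this age.

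The promoters of the mitotic genes are shown because these genes share control through known elements, and the elements can be counted without any expression value. RefSeq start sites (GRCm38.p6) were matched for 37 of the 42 genes, in 39 windows of 250 bases upstream, and motifs were searched on both strands. The CHR element TTTGAA was in 35.9% of these windows and in 16.0% of all promoter windows in the RefSeq table. The CCAAT box was in 76.9% of the mitotic windows against 33.8% of all, and 53.8% against 10.1% held 2 or more of them. CHR (TTTGAA or its variant TTCGAA) and CCAAT stood together in 35.9% against 6.02%. The E2F core, GCGCGAA or GCGGGAA, was in 7.69% of the mitotic windows and 5.0% of all, but in 51.9% of the 27 windows of a list of DNA replication genes. The 2 motifs can share end bases, and a match of letters is not a measured binding site. Bases past the start site were not counted, so a motif lying there is missed by these shares.

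The 6 windows below were chosen because no annotated exon overlaps them and the RefSeq start lies in a GENCODE transcript, and because they run from many motifs to none. Each shows the 150 bases that end just before the start site, read 5′ to 3′ on the strand of the gene, with CHR and CCAAT letters of either strand in capitals. Top2a lies at chr11:99024190-99024339 (minus strand), Cenpf at chr1:189688087-189688236 (minus), Ccnb2 at chr9:70421555-70421704 (minus), Cks2 at chr13:51645082-51645231 (plus), Racgap1 at chr15:99651657-99651806 (minus) and Kif20b at chr19:34922208-34922357 (plus).
Top2a: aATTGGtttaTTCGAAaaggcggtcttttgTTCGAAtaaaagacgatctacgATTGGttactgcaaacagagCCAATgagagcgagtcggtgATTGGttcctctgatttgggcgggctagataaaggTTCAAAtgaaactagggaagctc
Cenpf: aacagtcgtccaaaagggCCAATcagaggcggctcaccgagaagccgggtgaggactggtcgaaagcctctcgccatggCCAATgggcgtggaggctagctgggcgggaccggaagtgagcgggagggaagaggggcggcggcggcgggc
Ccnb2: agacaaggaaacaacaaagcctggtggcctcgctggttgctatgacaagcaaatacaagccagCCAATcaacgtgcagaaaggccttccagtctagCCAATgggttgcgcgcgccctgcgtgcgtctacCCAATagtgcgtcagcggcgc
Cks2: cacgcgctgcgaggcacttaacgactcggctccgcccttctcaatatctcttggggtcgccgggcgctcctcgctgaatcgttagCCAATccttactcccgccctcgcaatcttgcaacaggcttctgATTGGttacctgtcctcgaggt
Racgap1: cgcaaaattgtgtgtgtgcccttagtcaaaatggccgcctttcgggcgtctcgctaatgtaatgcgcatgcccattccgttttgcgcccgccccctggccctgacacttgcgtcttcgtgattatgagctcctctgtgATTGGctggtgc
Kif20b: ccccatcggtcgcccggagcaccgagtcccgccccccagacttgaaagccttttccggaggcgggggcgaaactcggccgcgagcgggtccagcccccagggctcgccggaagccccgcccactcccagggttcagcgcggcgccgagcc
Top2a held 3 CHR and 4 CCAAT matches in its window, Ccnb2 held 3 CCAAT boxes spaced 33 bases apart, and Kif20b held neither motif upstream of its start site. The stretch just past the start site, outside these windows, held TTTGAA in Kif20b, Cenpf, Ccnb2 and Racgap1, and not in Top2a or Cks2.

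Cells were grouped by the 2 transcription factor genes that separate granule cells from nuclei neurons. Cells with 500 or more genes, 1000 or more unique molecular identifiers (UMIs, each standing for a captured RNA molecule) and a mitochondrial share of no more than 10% were kept, 2007 to 3931 a library. Pax6 > Meis2 cells had more Pax6 than Meis2 UMIs and numbered 1801 and 961 in control replicates 1 and 2 and 1208 and 2978 in CKO replicates 1 and 2. Among them, Atoh1-positive cells (Atoh1 without Neurod1) numbered 201, 80, 182 and 438, and Neurod1-positive cells (Neurod1 without Atoh1) 719, 423, 310 and 786, in the same order. Cells with both genes were in neither class. They numbered 394, 61, 511 and 1038, or 13.5% and 1.55% of kept control cells against 25.5% and 28.1% of kept CKO cells. They were deep, with median counts of 13817.5, 4565, 18940 and 13945.5 UMIs. Meis2 > Pax6 cells numbered 603, 2322, 573 and 372. The summed granule lineage markers were at 3506 to 4035 counts per 1000000 UMIs (CPM) in Pax6 > Meis2 cells and at 2154 to 3496 in Meis2 > Pax6 cells. The summed markers of excitatory nuclei neurons were at 122 to 529 CPM in the former and 2337 to 3103 in the latter, so the second class held much granule lineage RNA beside its own. The nuclei neuron list included Meis2, and the granule list included Pax6, Atoh1 and Neurod1. Part of the contrast between the classes was thus set by the rule that made them.

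The libraries differed in depth and RNA quality along with genotype. The median UMI count of Pax6 > Meis2 cells was 3238 and 2339 in control libraries and 13722.5 and 9818.5 in the CKO libraries, and mitochondrial RNA made up 37127 and 49125 CPM against 27464 and 22596. En2 served as a check of the labels: it was at 105 and 129 CPM in control and 23.4 and 17.6 CPM in CKO Pax6 > Meis2 cells (log2 fold change −2.51, SE 0.24, edgeR adjusted p = 0.0115). En1 did not follow (164 and 227 against 98.4 and 219 CPM). Whether its 3′ tags lie within the deleted part of the gene was not tested. The 4 libraries shared between 1 and 6 cell barcodes a pair.

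In Pax6 > Meis2 cells, the mitotic genes stood slightly higher in the CKO libraries as a group, and no single one passed the test. Of the 42, 41 had a log2 fold change above 0, with a median of 0.47 beside −0.01 over all 13931 genes tested. None reached an adjusted p of 0.05 in edgeR's quasi-likelihood test (lowest 0.329) or in DESeq2, while 0.0574% of all genes did in edgeR. At an unadjusted p under 0.05, 6 were higher (3.31% of all genes), and 24 had both CKO libraries above both controls (22.9% of all genes). Summed, the 42 genes were at 5106 and 3855 TMM-scaled CPM in control libraries and 6844 and 5476 in the CKO libraries, so that the groups did not overlap. A larger share of dividing cells and more mitotic RNA per dividing cell cannot be told apart in these sums. Depth and mitochondrial RNA moved with genotype, and their part in the difference was not tested. With each cell thinned to an equal depth the median was 0.49 at 2000 UMIs and 0.51 at 1000 UMIs. In intact cells alone (4000 or more UMIs, mitochondrial share up to 5%) the median was 0.09. Leaving out a library moved it to 0.78 (control replicate 1), 0.29 (control replicate 2), 0.29 (CKO replicate 1) or 0.65 (CKO replicate 2). Control replicate 2, the lowest library by the sum, also stood apart in markers of other cells, with 529 CPM of nuclei neuron markers against 122 to 206 in the other libraries and 173 CPM of ventricular zone and glial markers against 297 to 326, and their part in the difference was not tested.

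**Figure D1:**
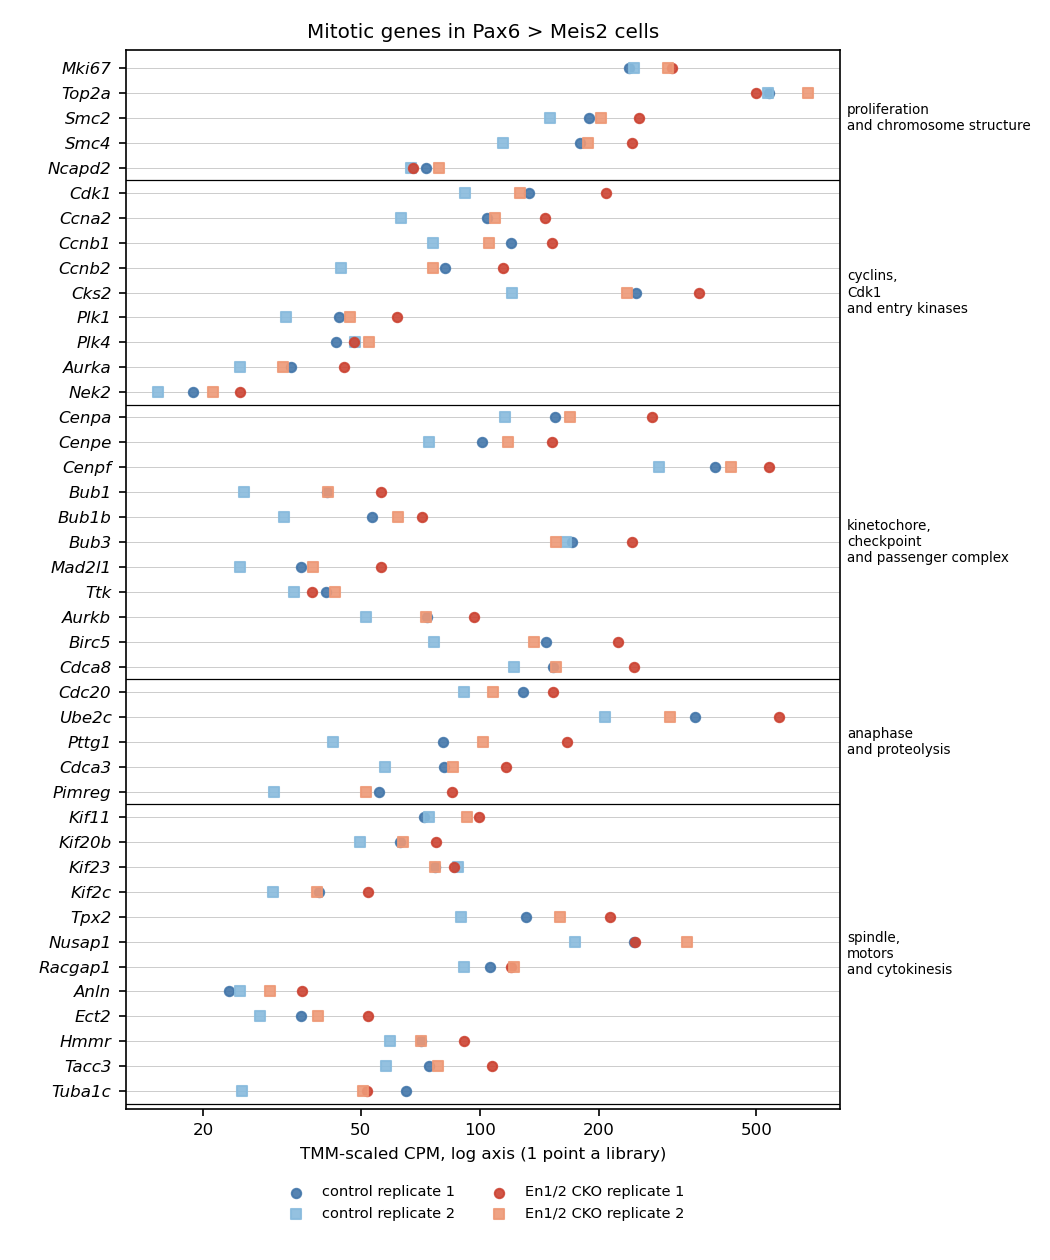
Levels of the 42 mitotic genes in Pax6 > Meis2 cells, in TMM-scaled counts per 1000000 UMIs on a log axis, one point per library, ordered by role. Of the 42 genes, 24 had both CKO libraries (red) above both controls (blue).

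The proliferation and chromosome structure genes summed to 1404 ± 51.0 CPM in CKO and 1164 ± 75.4 CPM in control libraries (SD, n = 2 each). Top2a, which untangles DNA strands before segregation, was at 538 and 533 CPM in control libraries and 499.9 and 673 in the CKO libraries. Mki67, a coat protein of mitotic chromosomes, was at 238 and 245 against 305 and 298 CPM (log2 fold change 0.32, SE 0.23). Top2a overlapped between the groups and Mki67 did not. Of the condensin genes, Smc2 was at 189 and 150 against 252 and 202 CPM, and Smc4 at 179 and 115 against 242 and 188. Ncapd2, a condensin I subunit, was at 73.4 and 66.9 against 67.7 and 78.8 CPM, with a log2 fold change of 0.06. Counts of 3′ UMIs do not scale with gene length, but how well the 3′ end of each gene was captured was not tested, so levels were compared between libraries and not between genes.

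The cyclin and kinase genes had a median log2 fold change of 0.49, and 6 of the 9 overlapped between groups, beside 7458 of all 13931 genes tested. Cks2, the small subunit that docks Cdk1 on its substrates, was at 248 and 121 CPM in control libraries and 357 and 235 in the CKO libraries. Control replicate 2 was the lowest library for Cks2, Cdk1, Ccna2, Ccnb1 and Ccnb2. Plk4, the kinase of centriole duplication, differed little between libraries, at 43.3 and 48.4 against 48.1 and 52.4 CPM. Plk1, which acts in bipolar spindle assembly and mitotic exit, was at 44.0 and 32.4 against 61.7 and 47.1 CPM (0.49, SE 0.24, edgeR adjusted p = 0.506).

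Of the 11 kinetochore, checkpoint and passenger complex genes, 7 had both CKO libraries above both controls (22.9% of all genes did) and 4 (Cenpa, Cenpe, Bub1b and Mad2l1) had an unadjusted p under 0.05 (3.31% of all genes). Cenpa, the histone variant of centromeres, was at 155 and 116 CPM in control libraries and 273 and 169 in the CKO libraries (0.70, SE 0.28, edgeR adjusted p = 0.48). Cenpf, a large protein of the outer kinetochore, was at 393 and 283 against 537 and 430 CPM. The groups did not overlap for either gene. Bub3, a checkpoint protein that also has a role in splicing, was at 171 and 166 against 242 and 156 CPM, and Ttk, the kinase at the head of the checkpoint, at 40.9 and 33.9 against 37.8 and 43.2. Both of these overlapped.

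The anaphase genes held the largest difference. Pttg1 encodes securin, which blocks separase until the anaphase-promoting complex destroys it, and lies at chr11:43420250-43426251 on the minus strand (mm10). It was at 81.0 and 42.7 CPM in control libraries and 166 and 102 in the CKO libraries, with no overlap (1.09, SE 0.33, edgeR adjusted p = 0.329). Ube2c, the ubiquitin-conjugating enzyme of that complex, was at 349 and 207 against 572 and 302 CPM, and Pimreg at 55.8 and 30.3 against 84.9 and 51.7. For both, control replicate 1 lay above CKO replicate 2.

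Of the 12 spindle, motor and cytokinesis genes, 9 had both CKO libraries above both controls, beside 22.9% of all genes. Tpx2, which activates Aurora A and nucleates microtubules around chromosomes, was at 131 and 89.6 against 213 and 159.8 CPM (0.75, SE 0.26, edgeR adjusted p = 0.433). Nusap1, a microtubule bundler, was at 245 and 174 against 247 and 335 CPM. Kif23, a motor of the central spindle, was the 1 gene with a log2 fold change below 0 (−0.01), at 77.2 and 88.1 against 86.1 and 77.2 CPM. Tuba1c was at 65.2 and 25.1 against 51.8 and 50.6 CPM. How well its reads were told apart from those of the similar alpha-tubulin genes was not tested.

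In Atoh1-positive cells, 37 of the 42 genes had a log2 fold change above 0, with a median of 0.39 beside −0.01 over 10544 genes. None was called by edgeR (lowest adjusted p = 0.404; 0.0948% of all genes were called) or DESeq2. At an unadjusted p under 0.05, 8 were higher (2.84% of all genes): Pttg1, Cenpa, Tpx2, Ccnb2, Birc5, Cks2, Mad2l1 and Ube2c. Both CKO libraries lay above both controls for 23 genes (19.3% of all genes). Pttg1 was at 69.2 and 48.8 CPM in control libraries and 118 and 97.0 in the CKO libraries (0.78, SE 0.25), and Cenpa at 110 and 111 against 218 and 148 (0.73, SE 0.24). The groups overlapped for neither gene. Mki67 did overlap, at 283 and 342 against 281 and 337 CPM, and so did Top2a, at 555 and 798 against 503 and 795. Kif23 was lowest by fold, at 84.8 and 125 against 82.9 and 78.4 CPM (−0.31, SE 0.24). The control replicate 2 values rest on 80 cells. The median was 0.16 when cells were assigned by the higher of Atoh1 and Neurod1 and 0.26 in intact cells. At equal depth it was 0.28 at 2000 UMIs and 0.59 at 1000 UMIs a cell. Without CKO replicate 2, Cenpa, Cks2 and Ube2c were called.

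In Neurod1-positive cells the mitotic genes were lower in level and without a common direction. Their sum was 2630 and 2865 CPM in control libraries and 2728 and 2958 in the CKO libraries, beside 4557 and 4683 against 5949 and 5580 in Atoh1-positive cells. The median log2 fold change was −0.03, with 20 of the 42 above 0. None was called by edgeR (0.0435% of all genes were) or DESeq2, and Pttg1 alone had an unadjusted p under 0.05 in the higher direction (8.17% of all genes). Both CKO libraries lay above both controls for 9 genes (24.6% of all genes) and below for Bub3, Hmmr and Tuba1c (2534 of all 11494 genes tested).

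Pttg1 was at 46.6 and 31.9 CPM in control and 92.7 and 68.3 in CKO Neurod1-positive cells (0.99, SE 0.23, edgeR adjusted p = 0.156), so that its groups did not overlap. Cenpf, in contrast, was at 222 and 210 against 204 and 221 CPM. Tuba1c had the lowest fold change, at 32.6 and 25.4 against 11.8 and 24.9 CPM (−0.62, SE 0.32, edgeR adjusted p = 0.405). The median was −0.35 in intact cells and 0.54 when cells were assigned by the higher of Atoh1 and Neurod1, which brings in cells with RNA of both genes. It was 0.17 at an equal depth of 2000 UMIs, 0.13 without control replicate 2 and 0.05 without CKO replicate 1, so its sign was not stable. Without CKO replicate 2, Pttg1 was called as higher and Top2a (−0.87) and Tuba1c (−1.32) as lower, and without CKO replicate 1, Nusap1 as higher.

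The CKO effect was compared between the Atoh1-positive and Neurod1-positive cells in a fit over both classes, with each library as a block. The median difference of log2 fold changes was 0.26, with 38 of the 42 genes above 0. None was called by edgeR (0.0599% of all genes were), and 7 had an unadjusted p under 0.05 toward a larger effect in Atoh1-positive cells (2.69% of all genes): Cenpf, Smc2, Cenpa, Cdk1, Aurkb, Ccnb1 and Kif11. DESeq2 was not run on this fit. With cells assigned by the higher of the 2 genes the median was −0.34 and Plk1 and Pttg1 were called, both toward a smaller effect in Atoh1-positive cells. At equal depth the median was −0.04 at 2000 UMIs and 0.39 at 1000 UMIs, and in intact cells it was 0.55. Without CKO replicate 2 it was 0.46 and Cdk1 and Tuba1c were called, and without control replicate 1 it was 0.34 and Racgap1 was called. Without control replicate 2 it was 0.17, as it was without CKO replicate 1. The direction of this difference thus changed with the class rule, and its size varied with the depth chosen.

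**Figure D2:**
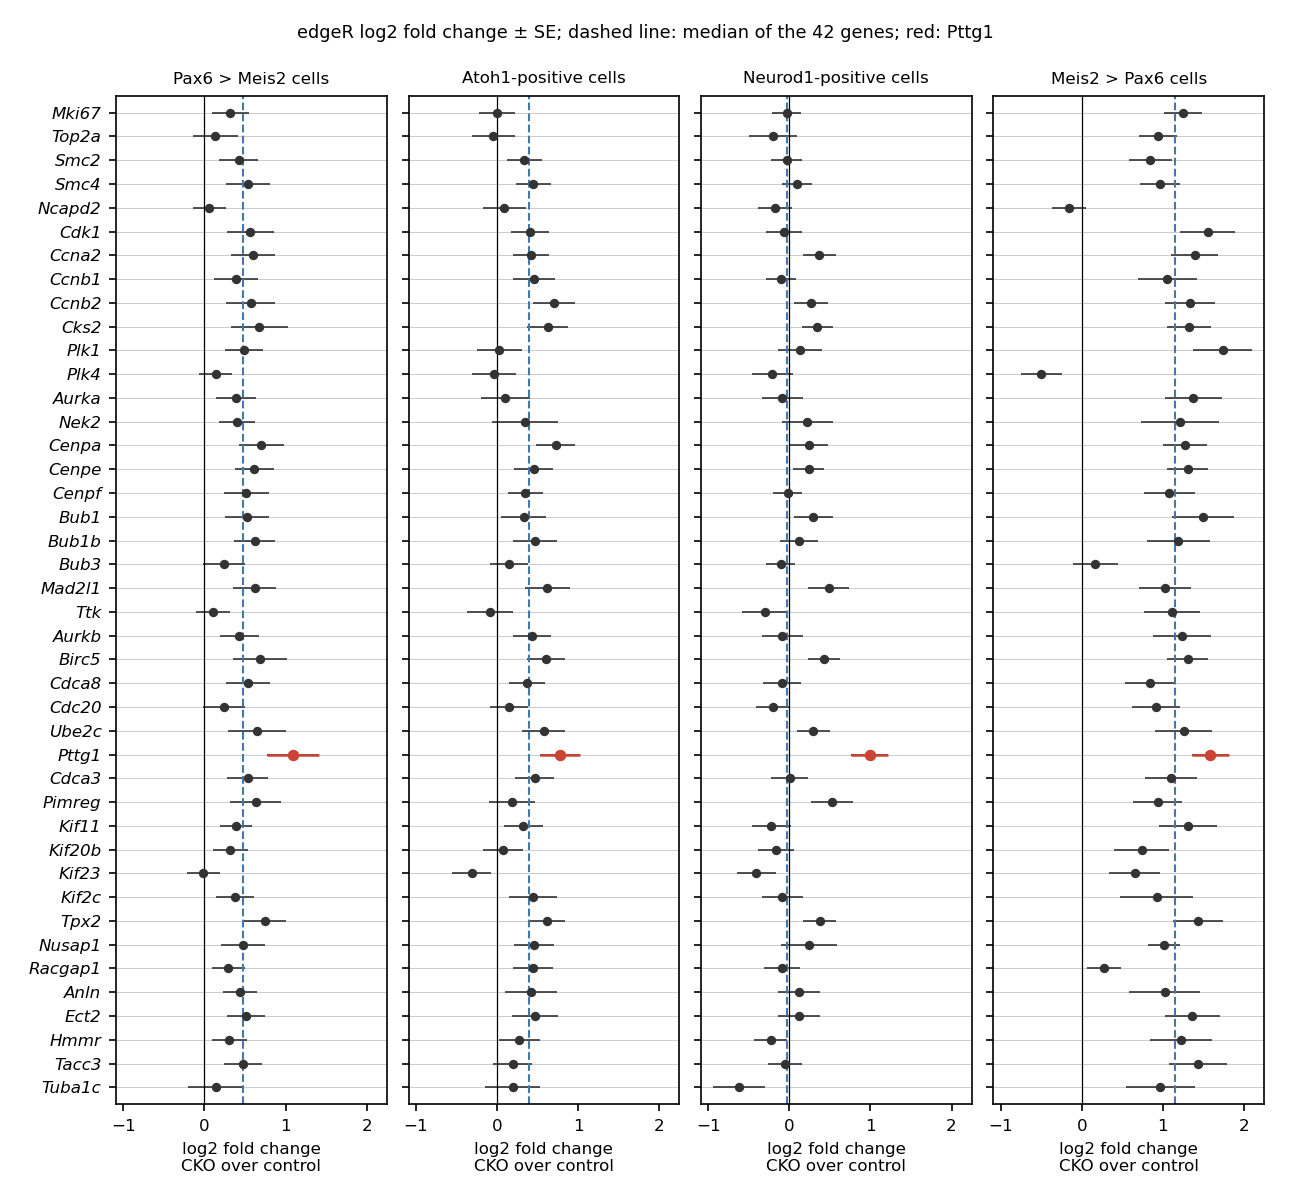
Log2 fold change of each mitotic gene, CKO over control, with its standard error, in the 4 groups of cells (edgeR, 2 libraries a genotype). The dashed median stood at 0.47, 0.39, −0.03 and 1.15, and Pttg1 (red) lay right of the median in all 4.

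Pttg1 had the highest fold change of the 42 genes in the Pax6 > Meis2, Atoh1-positive and Neurod1-positive cells and the second highest in Meis2 > Pax6 cells. This rank varied with the processing. Pttg1 had rank 1 in 14 of 16 ways of processing in Pax6 > Meis2 cells (lowest rank 2) and 14 of 16 in Neurod1-positive cells (lowest 3). It had rank 1 in 9 of 15 in Atoh1-positive cells (lowest 20) and 2 of 15 in Meis2 > Pax6 cells (lowest 13). Per 1000 UMIs of the other 41 genes in Pax6 > Meis2 cells, there were 16.1 and 11.2 Pttg1 UMIs in control libraries and 24.9 and 18.9 in the CKO libraries. In Atoh1-positive cells the ratio was 15.4 and 10.5 against 20.2 and 17.7, and in Neurod1-positive cells 18.04 and 11.2 against 35.2 and 23.7. The CKO libraries lay above the controls in each of these classes, and also in Meis2 > Pax6 cells (13.8 and 19.1 against 23.4 and 30.4). This ratio was computed after the fold changes of Pttg1 were known and carries no test. Over the ways of processing tried, the log2 fold change of Pttg1 was above 0 in all 16 in Pax6 > Meis2 cells (0.63 to 1.69) and called in 2. In Neurod1-positive cells it was above 0 in all 16 (0.47 to 1.33) and called in 4, and in Atoh1-positive cells in all 15 (0.26 to 1.16), called in none.

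To look at cells with replication RNA apart, Pax6 > Meis2 cells with at least 2 UMIs of 30 DNA replication genes were taken, after each cell had been thinned to 2000 UMIs. The full counts of these 831, 305, 648 and 1418 cells were then summed. With the class also set on thinned counts, this cut took in 680 of 1113, 253 of 495, 457 of 751 and 1052 of 1723 cells. Whether all of them were cycling was not tested. The mitotic genes had a median log2 fold change of 0.33 in the cells with replication RNA, with 40 of the 42 above 0. It was 0.13 without CKO replicate 1 and in intact cells, and 0.52 without CKO replicate 2. None was called by edgeR (0.0152% of all genes were; lowest adjusted p = 0.27) or DESeq2. At an unadjusted p under 0.05, 5 were higher (2.68% of all genes): Pttg1, Tpx2, Bub1b, Ect2 and Cenpe. Both CKO libraries lay above both controls for 21 genes (21.8% of all genes). Pttg1 was at 100.1 and 56.0 CPM in control libraries and 205 and 127 in the CKO libraries (1.05, SE 0.29), again with no overlap.

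Mitotic and replication RNA were found in the same cells to a differing degree. At 2000 UMIs a cell, Pax6 > Meis2 cells with 2 or more replication UMIs held 911 and 1186 mitotic UMIs per 100 cells in control libraries and 1448 and 1103 in the CKO libraries, and cells with no replication UMI held 218 and 217 against 241 and 249. The ratio of the 2 kinds of cell was 4.18, 5.47, 6.0 and 4.42, with the genotypes overlapping. Over all libraries pooled, Aurkb, the kinase of the passenger complex, had the highest ratio (17.3) and Kif2c, a microtubule depolymerase, the next (14.1). Bub3 (1.75), Pttg1 (2.29) and Racgap1 (2.62), a partner of Kif23 at the central spindle, had the lowest pooled ratios. The order varied between libraries: the ratio of Pttg1 was 2.72 and 4.08 in control and 2.23 and 1.98 in CKO libraries, with its control values resting on 9 and 3 UMIs in cells with no replication UMI. That of Bub3 was 2.09 and 1.37 against 2.73 and 1.55. Aurkb rests on 7 UMIs in the cells with no replication UMI and Kif2c on 5.

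At a common depth of 2000 UMIs a cell, the share of Pax6 > Meis2 cells with at least 3 mitotic UMIs did not separate the genotypes. It was 39.4% (95% Wilson interval 36.6 to 42.3) and 42.4% (38.1 to 46.8) in control libraries and 48.3% (44.8 to 51.9) and 39.5% (37.2 to 41.9) in the CKO libraries. In Atoh1-positive cells it was 45.7% and 63.9% against 58.7% and 44.1%, and in Neurod1-positive cells 36.9% and 29.5% against 35.2% and 31.7%. Without thinning, the shares in Pax6 > Meis2 cells were 62.1% and 50.6% against 78.1% and 68.7%, which follows the unequal depths given above. Cells of under 2000 UMIs were left out, 940 of 2911 and 1786 of 3931 kept cells in control libraries and 422 of 2007 and 1099 of 3697 in the CKO libraries. These intervals cover counting error only.

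Cells with at least 10 mitotic UMIs, a cut added after the shares had been seen, made up 18.9% and 23.4% of Pax6 > Meis2 cells in control libraries and 32.2% and 24.7% in the CKO libraries. The genotypes did not overlap at this cut, but control replicate 2 and CKO replicate 2 lay within each other's counting intervals (19.9 to 27.4 and 22.7 to 26.8). In Atoh1-positive cells the shares were 23.6% and 47.2% against 42.03% and 30.0% and overlapped. In Neurod1-positive cells they were 14.6% and 13.8% against 19.9% and 16.9%.

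**Figure D3:**
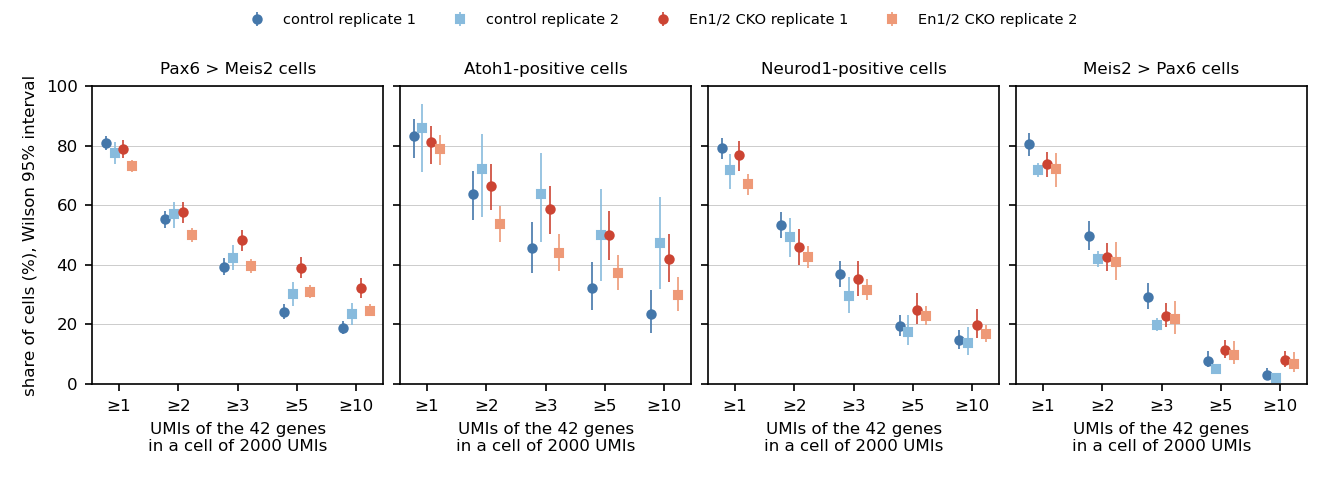
Share of cells, in percent, with at least 1, 2, 3, 5 or 10 UMIs of the mitotic genes after thinning each cell to 2000 UMIs, by class and library, with 95% Wilson intervals for counting error. At 3 UMIs the Pax6 > Meis2 shares lay between 39.4% and 48.3%, and at 10 UMIs the Meis2 > Pax6 shares were 3.0% and 2.0% in control libraries and 8.0% and 6.7% in the CKO libraries.

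The largest differences were in Meis2 > Pax6 cells, where the mitotic genes were least abundant. Pttg1 rose from 17.0 and 18.7 CPM in the controls to 58.1 and 49.4 in the CKO libraries (log2 fold change 1.58, SE 0.23, edgeR adjusted p = 0.0334) and was the 1 of 42 genes called, where 0.212% of all genes were. The groups did not overlap. The other 41 did not pass the test; 40 of the 42 had a log2 fold change above 0, the median was 1.15 beside −0.01 over all 11804 genes tested, and 35 had an unadjusted p under 0.05 toward higher values (7.85% of all genes). Both CKO libraries lay above both controls for 34 genes (22.0% of all genes) and below for Plk4 (2667 of all 11804 genes). The sum over the 42 was 1248 and 999 CPM in control libraries and 2538 and 1676 in the CKO libraries.

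**Figure D4:**
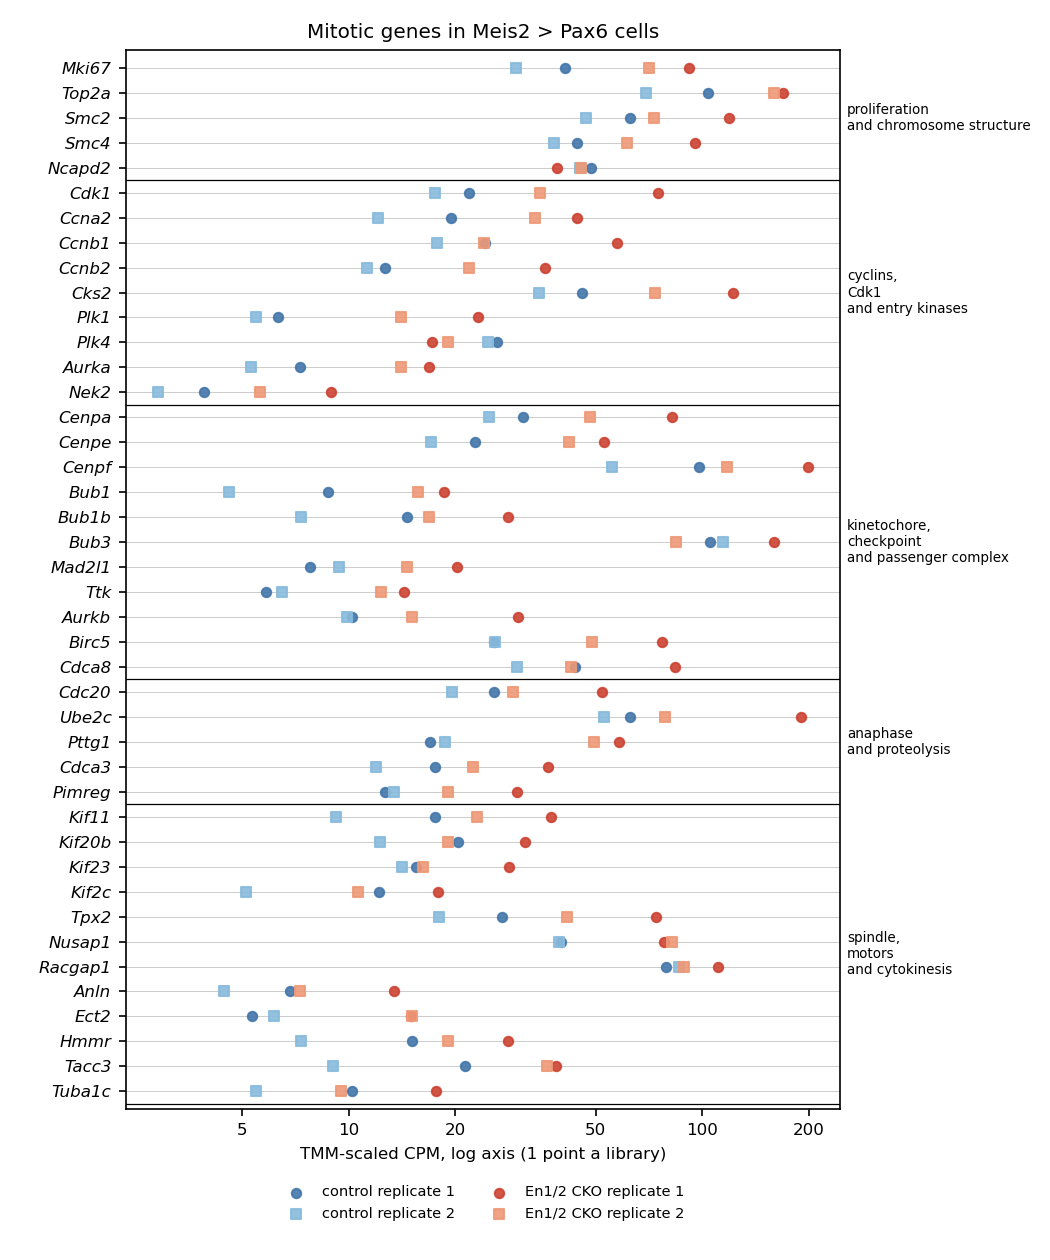
Levels of the 42 mitotic genes in Meis2 > Pax6 cells, in TMM-scaled counts per 1000000 UMIs on a log axis, one point per library, ordered by role. Both CKO libraries (red) lay above both controls (blue) for 34 genes, while Plk4 had the reverse order and Ncapd2, Bub3 and Racgap1 had log2 fold changes near 0, of −0.16, 0.16 and 0.28.

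Mki67 was at 40.8 and 29.7 CPM in control and 91.9 and 70.7 in CKO Meis2 > Pax6 cells (1.25, SE 0.24, edgeR adjusted p = 0.0851). Top2a was at 104 and 69.2 against 169 and 159.9 CPM (0.94, SE 0.24), and Smc4 at 44.2 and 38.0 against 95.4 and 61.2. All 3 were apart between the groups. Smc2 was at 62.7 and 46.9 against 119 and 72.9 CPM, also apart, whereas Ncapd2 was at 48.6 and 45.0 against 38.8 and 45.4, and overlapped (−0.16, SE 0.21).

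Plk1 had the highest fold change of the class, at 6.32 and 5.45 CPM in control libraries and 23.3 and 14.03 in the CKO libraries (1.74, SE 0.36, edgeR adjusted p = 0.0977). Cdk1 followed Pttg1, at 21.9 and 17.6 against 75.2 and 34.8 CPM (1.55, SE 0.34), and Cks2 was at 45.7 and 34.6 against 122 and 73.5 (1.33, SE 0.27). Each of these was apart between groups, with CKO replicate 1 the highest. Plk4 was at 26.2 and 24.7 against 17.2 and 19.1 CPM (−0.50, SE 0.26, edgeR adjusted p = 0.412). Plk4 serves centriole duplication, which takes place in S phase, and was the 1 gene with both CKO libraries below both controls.

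Cenpa was at 31.1 and 24.9 CPM in control and 82.3 and 48.2 in CKO Meis2 > Pax6 cells (1.27, SE 0.28), and Cenpf at 97.7 and 55.7 against 199 and 117 (1.08, SE 0.32). Both were apart between groups. Bub3 was at 105 and 114 against 159.6 and 84.2 CPM, with CKO replicate 1 highest and CKO replicate 2 lowest. Ttk, at 5.83 and 6.48 against 14.3 and 12.3 CPM, was apart (1.11, SE 0.35), while its log2 fold change was 0.10 in Pax6 > Meis2, −0.08 in Atoh1-positive and −0.31 in Neurod1-positive cells.

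Ube2c was at 62.7 and 52.8 CPM in control and 191 and 78.5 in CKO Meis2 > Pax6 cells (1.25, SE 0.35), and Pimreg at 12.6 and 13.5 against 29.8 and 19.1 (0.94, SE 0.30). All 5 anaphase genes had both CKO libraries above both controls, beside 22.0% of all genes. Of the spindle genes, Tpx2 was at 27.2 and 18.1 against 73.8 and 41.5 CPM (1.43, SE 0.31) and Nusap1 at 39.8 and 39.4 against 78.0 and 81.9 (1.01, SE 0.20). Kif23 was at 15.5 and 14.1 against 28.4 and 16.3 CPM, Tuba1c at 10.2 and 5.45 against 17.6 and 9.54. Tuba1c overlapped, and Kif23 was apart by a margin smaller than the gap between the CKO libraries.

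The count of called genes in Meis2 > Pax6 cells varied with the library set and the processing. It was 21 without control replicate 1, 29 without CKO replicate 2, and 1 (Pttg1) without either other library; it was 12 with DESeq2. The median was 0.76 without CKO replicate 1. At equal depth of 2000 UMIs none of 31 genes tested was called and the median was 0.59, and at 1000 UMIs none of 21 was called and the median was 0.09. With presumed doublets removed none was called and the median was 0.93, while in intact cells 4 of 41 were called (Pttg1, Ccna2, Cks2 and Top2a). Pttg1 was called in 13 of 15 ways of processing; it was not with doublets removed (1.35, edgeR adjusted p = 0.112) or at 2000 UMIs (1.26, edgeR adjusted p = 0.295).

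**Figure D5:**
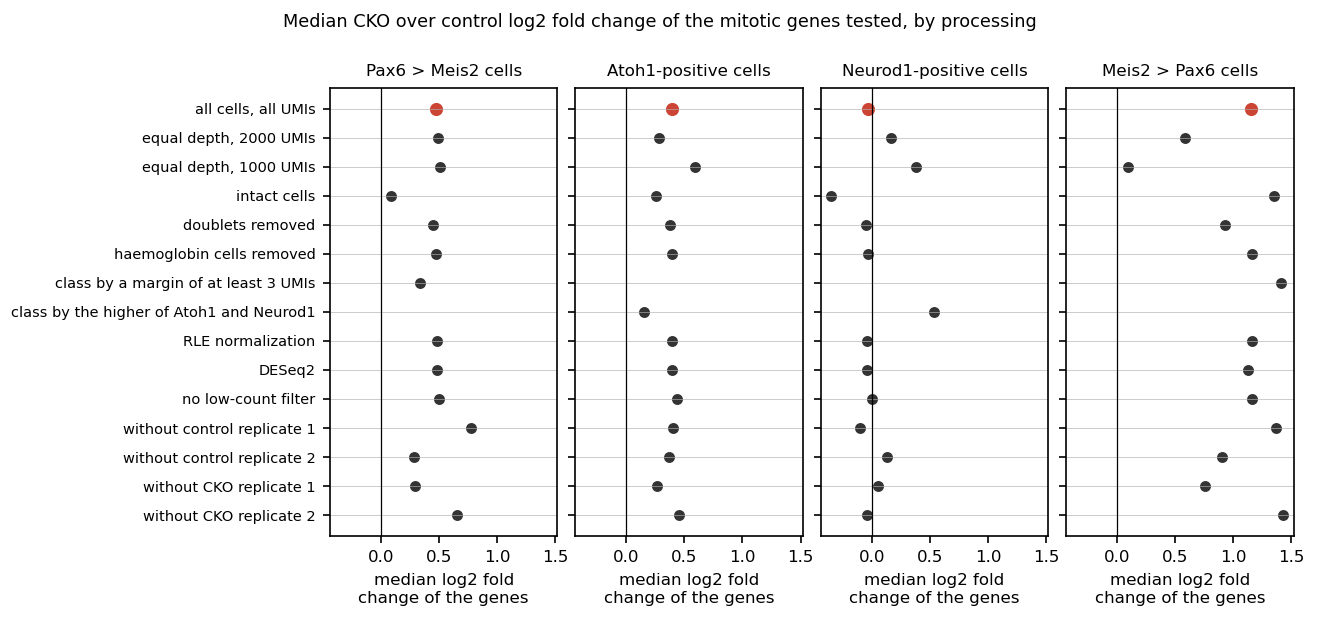
Median log2 fold change of the mitotic genes, CKO over control, in each class under each way of processing; red marks the values given first in the text. In Meis2 > Pax6 cells the median ran from 0.09 at 1000 UMIs a cell to 1.43 without CKO replicate 2, and in Neurod1-positive cells from −0.35 in intact cells to 0.54 with cells assigned by the higher of Atoh1 and Neurod1.

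The share of cells with mitotic RNA depended on the cut. At 2000 UMIs a cell, 29.4% and 19.9% of Meis2 > Pax6 cells in control libraries and 22.9% and 21.9% in the CKO libraries had at least 3 mitotic UMIs, with the genotypes overlapping. At least 10 were found in 12 and 25 control cells (3.04% and 2.0%) and in 33 and 15 CKO cells (8.03% and 6.7%), and there the CKO shares were the higher ones. These cells were deep, with median full counts of 10165 and 3345 UMIs in control libraries and 22901 and 18107 in the CKO libraries. Lhx9, a marker of nuclei neurons, averaged 0.17, 0.04, 0.30 and 0.20 UMIs a cell in them, in the order of libraries above, and 0.78, 1.05, 1.22 and 0.79 in cells with under 3. Their median Meis2 count was 1, 2, 1 and 1 UMIs, beside 3 in each library for cells with under 3 mitotic UMIs. Meis2 reached 2 UMIs or more in 5 of the 12, 13 of the 25, 14 of the 33 and 7 of the 15. To which lineage they belong was not tested. Doublet calls took in 1 of the 12, 5 of the 25, 1 of the 33 and 4 of the 15.

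Other RNA also moved with genotype in the Meis2 > Pax6 class. Granule lineage markers summed to 2327 and 2154 CPM in control libraries and 3122 and 3496 in the CKO libraries, with all 10 genes detected in each. Atoh1 itself was at 90.4 and 42.8 against 201 and 118 CPM. Ventricular zone and glial markers, all 8 detected, summed to 311 and 105 against 193 and 333 CPM and overlapped. The part that granule lineage RNA plays in the mitotic values was not tested. The class was also narrowed to cells with at least 3 more Meis2 than Pax6 UMIs, an alternative added after the data had been seen. The median was then 1.41 and 21 of the 42 genes were called, Pttg1 among them, with the share of all genes not given here. This margin was taken on full counts, so deeper cells meet it more easily, and it cannot decide the part of granule lineage RNA.

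The CKO effect was compared between Pax6 > Meis2 and Meis2 > Pax6 cells in a fit with library as a block. The median difference was −0.56, that is, a smaller effect in Pax6 > Meis2 cells, and 25 genes had an unadjusted p under 0.05 in that direction (3.87% of all genes). None was called by edgeR (0.114% of all genes were; lowest adjusted p = 0.206, for Mki67); DESeq2 was not run on this fit. Mki67 had a difference of −0.95 (SE 0.22), Plk1 of −1.14 (SE 0.28) and Plk4 of 0.61 (SE 0.22). Pttg1 had a difference of −0.33 (SE 0.29). The count was 12 in intact cells and 8 under the margin of 3 UMIs, all toward a smaller effect in Pax6 > Meis2 cells. The share of all genes called in those settings is not given here. The median was −0.13 at 2000 UMIs and 0.37 at 1000 UMIs a cell, −1.21 in intact cells, −0.34 with doublets removed, −0.85 under the margin and −0.31 without CKO replicate 1.

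The rest of the mitotic program was read from a second list of 63 genes, among them Foxm1, Mybl2, the Ndc80 complex and further kinesins. None of its tested members was called in any of the 4 classes, and the medians were 0.30 in Pax6 > Meis2, 0.22 in Atoh1-positive, −0.03 in Neurod1-positive and 0.80 in Meis2 > Pax6 cells. At an unadjusted p under 0.05, 6, 5, 1 and 29 were higher, beside 3.31%, 2.84%, 8.17% and 7.85% of all genes, and in Neurod1-positive cells 1 was lower. The 30 replication genes had medians of 0.25, 0.10, −0.03 and 0.39 in the same order, and a list of 16 genes of cell cycle exit and control 0.19, 0.08, 0.24 and 0.49. No gene of the replication or the exit list was called in these classes. In each class but the Neurod1-positive one the 42 mitotic genes had the highest median of the 4 lists, a description that was not tested.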

How the data were processed

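Cells of 4 libraries of tdTomato-sorted embryonic mouse cerebellum were sequenced. The authors deposited raw UMI counts per gene and cell barcode, made with Cell Ranger 5.0.0 on mm10 per the submitters' processing notes; the annotation release is not given in the sources used here. After the cell filters, UMIs were summed per library and class and tested with edgeR 4.0.16 (R 4.3.3; TMM scaling, filterByExpr, quasi-likelihood F test, Benjamini-Hochberg adjustment over all genes tested, threshold 0.05); levels are TMM-scaled CPM, and marker sums are plain CPM. DESeq2 1.42.0, depth, doublet, class and library alternatives were tried. Per-cell shares used cells thinned at random to 2000 UMIs, with 95% Wilson intervals. Library totals ran from 14998150 to 33709450 UMIs. On simulated counts, edgeR called 44% of genes changed by log2 1 and 100% of those changed by log2 2 in the Pax6 > Meis2 design, over 13728 genes. All 42 genes could be named; those with values in every library were the 10 most abundant in Pax6 > Meis2 cells, every gene called, and the 2 highest and 2 lowest fold changes of each class, and a few more were given to show their roles. The genes and lists were chosen with earlier results of these data known. Free RNA in droplets was not removed, and its part in the values was not tested.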

Additional observations from a re-analysis of the deposited data

How the results depend on the processing

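Of the 42 genes, edgeR called 0 in Pax6 > Meis2, Atoh1-positive and Neurod1-positive cells and in cells with replication RNA, and 1 in Meis2 > Pax6 cells. With no low-count filter it called 1 in Pax6 > Meis2 cells, 1 in Neurod1-positive cells, 1 in cells with replication RNA and 29 in Meis2 > Pax6 cells. In Meis2 > Pax6 cells DESeq2 called 12, intact cells alone gave 4, the margin of 3 UMIs gave 21, and doublet removal and equal depth of 2000 or 1000 UMIs gave 0 each, where fewer genes were tested at equal depth. Same-numbered libraries did not deviate together (correlations of −0.25 to −0.06). With 2 libraries a genotype this cannot show whether they shared an experiment, and the replicate number was not used as a pairing. As a replicate block it gave 5 in Meis2 > Pax6 and 1 in Neurod1-positive cells. The crossed replicate block, added after the data were seen, gave 28 in Meis2 > Pax6 cells, 1 in Neurod1-positive cells and 1 in cells with replication RNA. Leaving out 1 library gave 0 to 1 in Pax6 > Meis2, 0 to 3 in Atoh1-positive, 0 to 3 in Neurod1-positive (of the 3, Pttg1 higher, Top2a and Tuba1c lower), 1 to 29 in Meis2 > Pax6 and 0 to 2 in replicating cells; the highest count came each time without CKO replicate 2. For the difference between Pax6 > Meis2 and Meis2 > Pax6 cells, 0 became 12 in intact cells and 8 under the margin, and 0 to 9 with 1 library left out (9 without control replicate 1). For Atoh1-positive against Neurod1-positive cells, 0 became 2 with classes by the higher gene, and 0 to 2 with 1 library left out (2 without CKO replicate 2). The cause of these changes was not tested. The difference in the share of cells with at least 3 mitotic UMIs, CKO minus control in percentage points, was 3.0 in Pax6 > Meis2 cells and became 17.1 without thinning, −2.19 at 2 UMIs and 7.87 at 5, with −1.41 to 7.40 when 1 library was left out. In Atoh1-positive cells −3.37 became 12.6 at 1000 UMIs (−12.5 to 5.74 with 1 library left out). In Neurod1-positive cells 0.29 became 5.91 at 1000 UMIs, 14.2 without thinning, −7.08 at 2 and 5.33 at 5 (−3.40 to 3.99). In Meis2 > Pax6 cells −2.25 became 5.19 without thinning, 4.23 at 5 and 4.85 at 10 (−6.99 to 2.48). Depth limits these results: control Pax6 > Meis2 cells held 3238 and 2339 UMIs at the median, and with 2 libraries a genotype changes of log2 1 were called in fewer than all simulated cases.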
